A study of Mus musculus with 2 samples.

Results

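Interferon-induced genes, the interferon regulatory factors (IRFs) and the Ly6 surface protein genes were compared between CD5-positive gamma delta T cells of LAT3YF and of wildtype mouse spleens. Genes were taken by their platform symbol. These were the symbols that start with Ifi, Irf, Isg, Oas, Gbp, Irgm, Igtp or Iigp, or with Ly6 and a letter, without Irf4, together with Tap1, Tap2, Mx1, Mx2, Bst2, Usp18, Rsad2, Eif2ak2, Sp100 and Plac8. This gave 31 of the 4331 genes with a single-gene probe, measured by 33 probes. They were 7 IRFs, 7 interferon-inducible GTPases, 6 Ly6 genes, 5 antiviral effectors, 3 genes of the p200 family, the 2 genes of the peptide transporter TAP, and Plac8. No probe listed with several genes named one of them. Genes with the prefixes Isg and Oas, and Mx1, Mx2, Usp18 and Rsad2, had no named single-gene probe and were not analysed here.

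The LAT3YF allele replaces tyrosines of LAT, the adaptor of the T cell receptor, by phenylalanine. Per the labels, the cells of both genotypes were selected from spleen by CD5 with magnetic beads (MACS) and by FACSDiva sorting, and their total RNA was labelled for the arrays. The labels give no strain, age or number of animals for either population. The 2 arrays carried both populations each, with the dyes reversed, and counted as 1 replicate, so no test of LAT3YF against wildtype was possible. The - polarity array was turned in sign, and each ratio below is a log10 mean over both arrays ± SD, an error that is technical only. The labels do not say which population is the numerator of the ratio, so a positive and a negative ratio stand for more transcript in 1 population and in the other, and every statement can be read with the populations exchanged. The ratio also cannot tell fewer cells of a type from less RNA per cell, and it does not show whether a gene of the labelled cell type was present, since intensities were not analysed here. Folds assume that the deposited values are log10. If they were log2, the largest ratio of this group, 8.08-fold, would be 1.88-fold.

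Interferons act through surface receptors and Janus kinases on 2 kinds of promoter element. The interferon-stimulated response element (ISRE), which complexes with IRF9 bind, serves type I interferon, and the gamma-activated site (GAS) serves interferon gamma. Their targets include proteins that block viral entry and replication, GTPases that attack the vacuoles of intracellular microbes, and the transporter that loads MHC class I. The Ly6 genes encode small lipid-anchored surface proteins, several of them induced by interferon and used as markers of leukocyte subsets.

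Most of the group had ratios close to 1, and a few single genes stood out on either side. A gene was called when its mean ratio was at least 2-fold (0.301 on the log10 scale) with the same sign on both arrays. Among the 31 genes, 5 were called (16.1%), against 8.75% of all 4331 genes. On the positive side 2 of the 31 were called, where 3.72% of all genes were, and on the negative side 3 of the 31, where 5.03% of all genes were. Ly6c1, Plac8 and Irf8 were negative, and Ifitm2 and Ifi202b positive. These counts are small, and no test was made of them. Of the 31 genes, 23 (74.2%) had a mean ratio within 1.5-fold, against 80.0% of all genes. The median log10 ratio of the 31 genes was -0.0459, against 0.00231 over all genes, and taken array by array it was -0.0446 (+ polarity) and -0.0447 (- polarity).

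**Figure D1:**
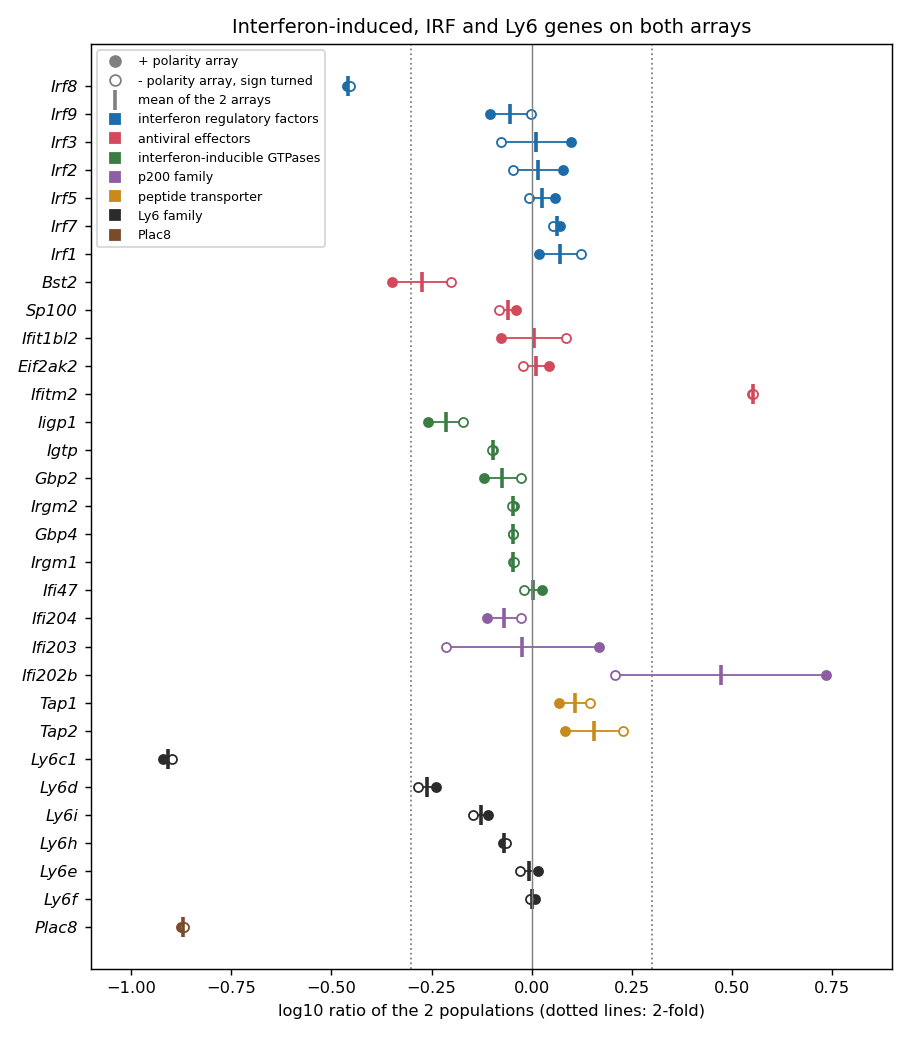
Log10 ratio of each of the 31 genes on the + polarity array (filled points) and the sign-turned - polarity array (open points), with the mean as a bar, ordered by role. Ly6c1, Plac8 and Irf8 lie left of the 2-fold line on both arrays and Ifitm2 right of it, whereas Ifi202b passes it only on the + polarity array.

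By the median SD, the 2 arrays differed less for these genes than over all genes. It was 0.0319 over the 31 genes and 0.0454 over the 26 not called, against 0.0579 over all genes. Across the 31 genes the arrays correlated with Pearson r = 0.892 and Spearman rho = 0.634, and across all 4331 genes with r = 0.403 and rho = 0.240. Without the 5 called genes, r was 0.507 and rho 0.383 over 26 genes. The values over all genes still hold their called genes, so they are not a like comparison for these 26. These correlations describe ratios that share the same populations and array design, and genes are not replicates. The 2 arrays had opposite signs for 9 of the 31 genes (29.0%). A call asks for the same sign, so all 9 were among the 26 genes not called (34.6%). Of all genes, 40.4% did not share a sign, counting genes with a ratio of exactly 0 on 1 array. The 9 were Ifi203, Ly6e, Ly6f, Ifi47, Ifit1bl2, Eif2ak2, Irf3, Irf2 and Irf5, all with means between -0.0241 and 0.0248.

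**Figure D2:**
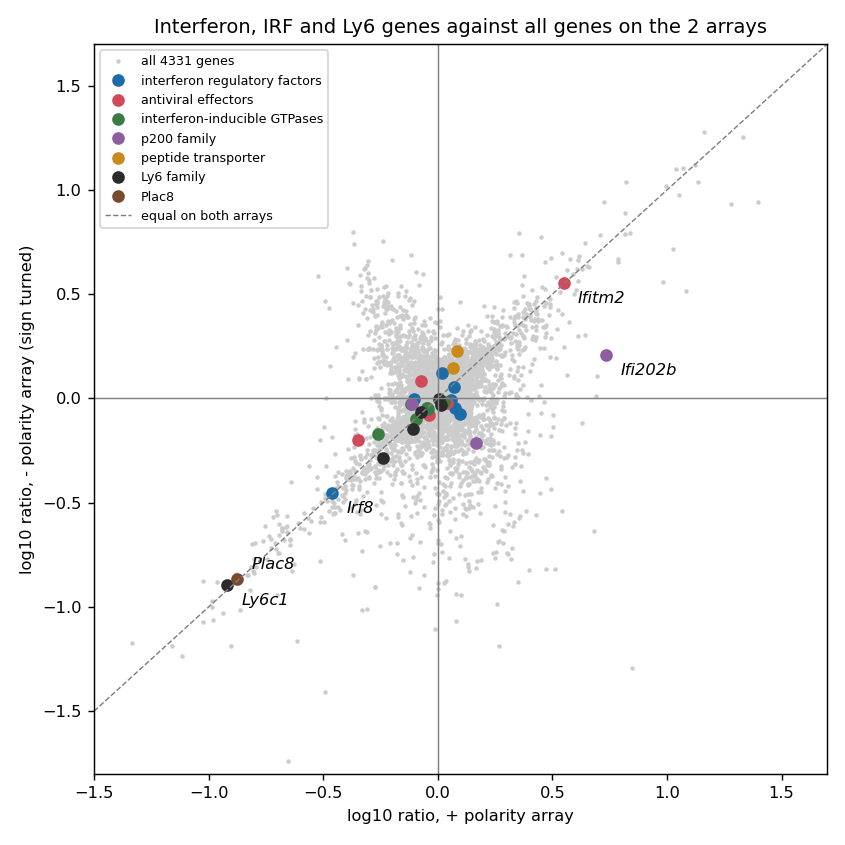
Log10 ratio on the + polarity array (x axis) against the sign-turned - polarity array (y axis), with all 4331 genes in grey and the 31 genes coloured by role. Ly6c1, Plac8, Irf8 and Ifitm2 lie on the line of equal ratios, and Ifi202b lies off it at 0.735 and 0.207.

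The promoters of the 5 called genes are shown as the 250 bases before the annotated start, from RefSeq (GRCm38.p6), because interferon response elements are often found there. The first listed start was taken where RefSeq gave more than 1, which was so for Ly6c1, Plac8 and Irf8. Bases run 5′ to 3′ on the strand of the gene, and capitals mark matches to the ISRE core (GAAANNGAAA, searched on both strands) and to GAS (TTCNNNGAA, which reads the same on both strands).
Ly6c1, chr15:75048838-75049087, - strand: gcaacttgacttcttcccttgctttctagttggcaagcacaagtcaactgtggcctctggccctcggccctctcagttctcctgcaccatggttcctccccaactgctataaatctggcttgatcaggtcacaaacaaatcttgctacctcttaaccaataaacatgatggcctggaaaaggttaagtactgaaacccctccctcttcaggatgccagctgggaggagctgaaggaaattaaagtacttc
Plac8, chr5:100572206-100572455, - strand: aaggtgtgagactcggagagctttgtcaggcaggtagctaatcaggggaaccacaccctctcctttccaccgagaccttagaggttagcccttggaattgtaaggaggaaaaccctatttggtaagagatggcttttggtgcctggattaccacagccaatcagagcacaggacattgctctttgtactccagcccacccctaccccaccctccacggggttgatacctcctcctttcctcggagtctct
Irf8, chr8:120736108-120736357, + strand: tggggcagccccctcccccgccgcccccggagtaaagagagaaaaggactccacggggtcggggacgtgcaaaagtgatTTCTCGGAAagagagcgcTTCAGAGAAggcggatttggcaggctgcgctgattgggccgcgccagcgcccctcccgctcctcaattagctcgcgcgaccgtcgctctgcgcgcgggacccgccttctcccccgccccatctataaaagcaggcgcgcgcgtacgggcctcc
Ifi202b, chr1:173982845-173983094, - strand: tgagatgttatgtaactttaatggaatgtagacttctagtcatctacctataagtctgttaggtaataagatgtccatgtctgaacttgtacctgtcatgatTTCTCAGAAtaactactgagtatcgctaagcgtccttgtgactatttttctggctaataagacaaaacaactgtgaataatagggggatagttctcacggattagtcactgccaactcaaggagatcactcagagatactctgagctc
Ifitm2, chr7:140955962-140956211, - strand: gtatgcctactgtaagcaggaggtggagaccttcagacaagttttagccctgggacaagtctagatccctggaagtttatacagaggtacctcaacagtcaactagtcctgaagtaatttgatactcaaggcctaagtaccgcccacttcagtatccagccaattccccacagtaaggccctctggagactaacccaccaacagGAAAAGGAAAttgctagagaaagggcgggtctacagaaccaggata
Ly6c1 and Plac8, the 2 genes with the largest ratios, held neither motif in this window, from either listed start. Irf8 held 2 GAS matches, Ifi202b held 1 GAS match, and Ifitm2 held 1 ISRE match that begins 46 bases before the start.

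RefSeq promoters were matched for 23 of the 31 genes. Of these 23, 9 (39.1%) held the ISRE core, against 2.98% of all 32851 promoters and 3.46% of all 27025 genes in the table. GAS was held by 8 of the 23 (34.8%), against 7.02% of all promoters and 8.13% of all genes. Of the 9 genes with the ISRE core 1 was called, and of the 8 with GAS 2 were called. Beside these, 5 of the 23 genes with a promoter and 8.75% of all genes were called. The group was chosen by names that refer to interferon induction, so these shares describe the genes and say nothing of binding in these cells. Both motifs were found upstream of Bst2, Igtp, Irf2 and Irgm2, and their matches overlapped in Bst2. The ISRE matches of the other 8 genes, none of them called, are shown with up to 20 bases on either side, the match in capitals.
Bst2, chr8:71537567-71537622, - strand: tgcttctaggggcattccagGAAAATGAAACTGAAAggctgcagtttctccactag
Igtp, chr11:58199502-58199551, + strand: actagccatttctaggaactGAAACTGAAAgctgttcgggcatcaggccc
Gbp2, chr3:142620584-142620633, + strand: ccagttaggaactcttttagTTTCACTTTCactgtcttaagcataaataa
Irgm2, chr11:58214893-58214942, + strand: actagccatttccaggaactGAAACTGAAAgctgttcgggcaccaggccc
Irgm1, chr11:48871421-48871470, - strand: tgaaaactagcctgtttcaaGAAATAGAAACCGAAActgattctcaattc
Ifi203, chr1:173942498-173942547, - strand: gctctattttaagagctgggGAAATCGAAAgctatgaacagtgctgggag
Ifit1bl2, chr19:34640765-34640833, - strand: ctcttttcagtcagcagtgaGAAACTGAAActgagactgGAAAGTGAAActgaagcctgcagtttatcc
Irf2, chr8:46739495-46739533, + strand: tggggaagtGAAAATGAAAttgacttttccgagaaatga
Apart from Bst2, which had a mean log10 ratio of -0.274, the means of these genes lay between -0.0974 and 0.0154. In Gbp2 the match reads on the opposite strand, and the Ifi203 window belongs to the second of its 2 listed starts. In Bst2 and Irgm1 a pair of matches overlap, and in Ifit1bl2 a pair lie apart. Igtp and Irgm2, neighbouring genes on chromosome 11, share 48 of the 50 bases shown and had log10 ratios of -0.0974 and -0.0466.

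**Figure D3:**
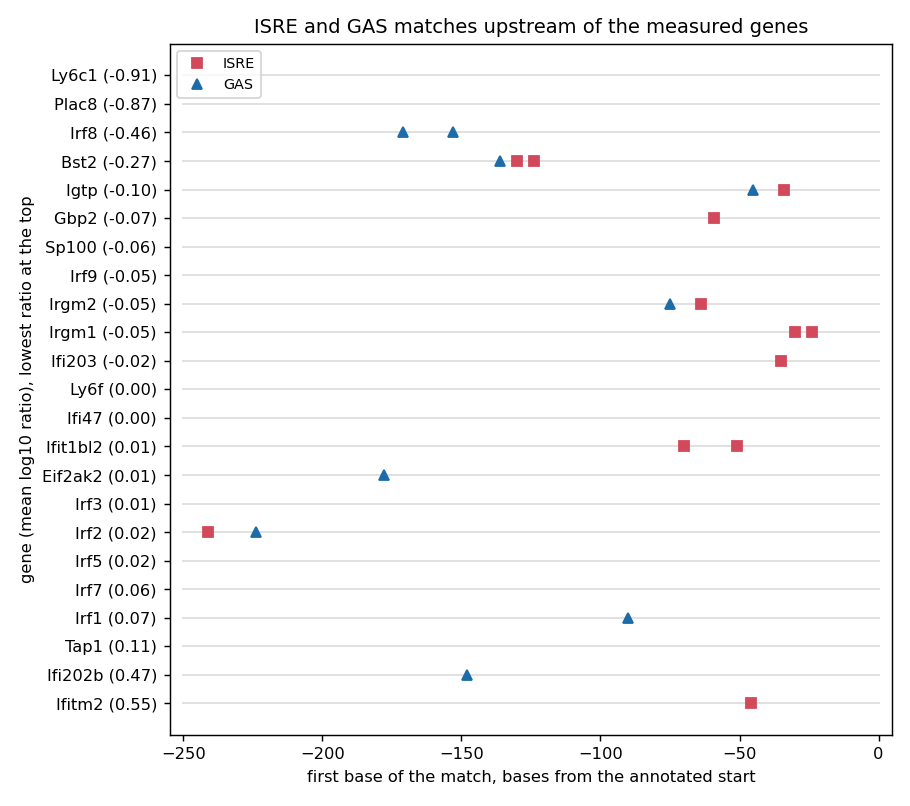
Position of each ISRE (squares) and GAS (triangles) match in bases from the annotated start (x axis) for the 23 genes with a promoter in the table, ordered from the lowest mean log10 ratio at the top to the highest at the bottom. Ly6c1 and Plac8 at the top have no match, and the 9 genes with an ISRE match range from -0.274 (Bst2) to 0.551 (Ifitm2).

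Of the IRFs, the transcription factors that induce interferon or carry its signal, 1 of 7 was called, against 8.75% of all genes. Irf8, a factor of dendritic cell, monocyte and B cell development, had log10 ratios of -0.461 (+ polarity) and -0.454 (- polarity), the order in which array values are given below. Its mean was -0.457 ± 0.0044 (2.87-fold), and it ranked 109th from the lowest of 4331 genes. The other 6 IRFs had means from -0.0532 to 0.0703, with a median of 0.0201. Irf9, the DNA-binding subunit of the complex that acts on the ISRE, was at -0.104 and -0.00217. Irf1, an activator induced by interferon gamma, was at 0.0182 and 0.122, and Irf2, which opposes Irf1 at shared sites, was at 0.0769 and -0.0461. Both differed between the arrays by more than their mean. Irf7, which amplifies type I interferon production, was at 0.0714 and 0.0528 (mean 0.0621 ± 0.013). Irf3, which starts type I interferon transcription after nucleic acid sensing, was at 0.0990 and -0.0762, and Irf5, a factor of inflammatory cytokine induction, was at 0.0569 and -0.0072. Irf2, Irf3 and Irf5 changed sign between the arrays.

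Irf8 and its closest relative, Irf4, lay on opposite sides. Irf4, which acts in activated lymphocytes and was left out of the group by its rule, had ratios of 0.485 and 0.402, with a mean of 0.443 ± 0.059 (2.77-fold). Irf4 minus Irf8 was 0.945 and 0.856 on the arrays, a difference of 0.901 ± 0.063. Among 9 measured partners of these factors and related regulators, Irf4 included, 3 were called positive, against 3.72% of all genes. They were Irf4 itself, Batf and Prdm1. None of the 9 was called negative, against 5.03% of all genes, and their median was 0.275. Batf, which binds DNA with IRF4 or IRF8, was at 0.624 ± 0.064 (4.20-fold), and Prdm1, the terminal differentiation factor Blimp-1, at 0.404 ± 0.088 (2.54-fold). Runx1 (0.294 ± 0.075) and Id2 (0.275 ± 0.0073) came next in size and were not called. Of the 9 genes, 3 had a mean below 0. Among these, Spi1, the myeloid and B cell partner PU.1, was at -0.256 ± 0.089 and was not called.

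Among the 5 antiviral effectors, 1 was called, positive, where 3.72% of all genes were called positive. Ifitm2, a membrane protein that hinders the entry of enveloped viruses, had ratios of 0.549 and 0.553, with a mean of 0.551 ± 0.0033 (3.56-fold). It ranked 39th from the highest of 4331 genes, and the arrays gave nearly the same value. Bst2 (tetherin), which holds budding virions at the cell surface and marks plasmacytoid dendritic cells in resting mice, was at -0.348 and -0.200. Its mean of -0.274 ± 0.10 (1.88-fold) was just below the threshold, which it passed on the + polarity array alone. Eif2ak2, the kinase PKR that halts translation on double-stranded RNA, was at 0.0420 and -0.0225. Sp100, a protein of nuclear bodies, was at -0.0389 and -0.0813 over its 2 probes, and Ifit1bl2 was at -0.0754 and 0.0858.

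None of the 7 interferon-inducible GTPases, large enzymes that act on the vacuoles of intracellular bacteria and parasites, was called, against 8.75% of all genes. Their median was -0.0466, and 6 of 7 had a mean below 0, as did 2114 of all 4331 genes. Iigp1 (Irga6), which coats the vacuole of Toxoplasma, was the lowest, with -0.260 and -0.171 and a mean of -0.215 ± 0.063 (1.64-fold). Igtp (Irgm3) followed at -0.0953 and -0.0994, and Gbp2, a guanylate-binding protein, at -0.119 and -0.0268. Irgm1, Irgm2 and Gbp4, of which the first 2 encode regulators of the other GTPases, had means of -0.0459, -0.0466 and -0.0462, close to one another and with SDs of at most 0.0028. Ifi47 (Irgd) was at 0.0254 and -0.0187, a mean of 0.00335. The 6 GTPases other than Iigp1 thus spanned -0.0974 to 0.00335. The quartiles of all genes were -0.0705 and 0.0760, and Igtp and Gbp2 lay below the lower one. These genes are close relatives, and their probes may share signal.

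The proteins of the 3 p200 genes bind nucleic acid in the nucleus and cytosol. Of these genes only Ifi202b was called positive, against 3.72% of all genes. Its ratios were 0.735 (+ polarity) and 0.207 (- polarity), with a mean of 0.471 ± 0.37 (2.96-fold). The - polarity array alone did not reach 2-fold. Its 2 probes gave 0.532 and 0.342 for one, and 0.938 and 0.0720 for the other, so the second passed 2-fold on the + polarity array only. Ifi203, the next gene on chromosome 1, was at 0.167 and -0.215, and Ifi204, with 2 genes between it and Ifi203, was at -0.112 and -0.0262. Ifi202b minus Ifi203 was 0.495 ± 0.10, and Ifi202b minus Ifi204 was 0.540 ± 0.43. Neighbouring genes of this family are similar in sequence, and the gene assignment of their probes is uncertain.

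Tap1 and Tap2, the paired chains of the transporter that carries peptides to MHC class I, both had positive ratios and were not called. Tap1 was at 0.0680 and 0.146, with a mean of 0.107 ± 0.055 (1.28-fold), and Tap2 at 0.0840 and 0.227, with a mean of 0.156 ± 0.10 (1.43-fold). After the 2 genes called positive, Tap2 and Tap1 had the highest means of the 31 genes. Their neighbours on chromosome 17 are the immunoproteasome genes Psmb9 (0.193 ± 0.011) and Psmb8 (0.184 ± 0.030). Of 18 other measured genes of class I presentation, 0 were called positive and 1 negative, and 16 of the means lay above 0 (median 0.0851). Over all 4331 genes, 2217 means lay above 0, and 3.72% were called positive and 5.03% negative. The highest of the 18 was the chaperone Calr at 0.220 ± 0.050. Their negative gene was Cd1d1, which presents lipids, at -0.432 ± 0.10 (2.70-fold). B2m, the shared light chain, was at 0.0982 and -0.0142.

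The Ly6 genes differed widely among themselves. Ly6c1, whose product is part of the Ly6C antigen of monocytes and memory T cells, had ratios of -0.919 and -0.896. Its mean of -0.908 ± 0.016 (8.08-fold) was the largest of the 31 genes in size and ranked 15th from the lowest of 4331 genes. Ly6d, a marker of early B lineage and plasmacytoid cells, was at -0.239 and -0.284 (mean -0.261 ± 0.032, 1.83-fold) and was not called. Ly6i was at -0.110 and -0.145, and Ly6h, known from the nervous system, at -0.0728 and -0.0641. Ly6e, an interferon-induced gene of many tissues, was at 0.0157 and -0.0295, and Ly6f was at 0.00721 and -0.00388. Ly6c1 was thus apart from all 5 relatives, whose means spanned -0.261 to 0.00167. These 6 genes lie in 1 cluster on chromosome 15 in the order Ly6d, Ly6e, Ly6i, Ly6c1, Ly6f, Ly6h, with 0 to 7 other coding genes between neighbours. Ly6c1 minus Ly6i, with 1 gene between them, was -0.780 ± 0.041, and Ly6c1 minus Ly6e was -0.901 ± 0.048. Ly6c1 and its neighbour Ly6c2 are nearly identical, so the signal of the Ly6c1 probe may include both.

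Plac8, which encodes a small cysteine-rich protein of leukocytes and other cells and is no member of these families, was close to Ly6c1 in size. Its ratios were -0.874 and -0.868, with a mean of -0.871 ± 0.0046 (7.43-fold), and it ranked 17th from the lowest. Only Ly6c1 was lower among the 31 genes.

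Markers of several other spleen cell types lay mainly on the same side as Ly6c1, Plac8 and Irf8. For the counts that follow, 5.03% of all 4331 genes were called negative and 3.72% positive. Of 11 measured markers of myeloid and dendritic cells, 8 were called negative, none was called positive, and the median was -0.888, with a range of -1.05 to 0.0225. Of 10 B cell markers 4 were called negative, with a median of -0.240 and a range of -0.719 to 0.193. Of 7 NK cell markers 6 were called negative, all but Ncr1, with a median of -0.624 and a range of -0.979 to -0.0723. Of 4 CD8 memory markers the coreceptor chains Cd8a (-1.20 ± 0.77) and Cd8b1 (-1.18 ± 0.082) were called negative, and Cxcr3 (-0.0869) and Il2rb (-0.0112) were not. Of the 8 measured markers of plasmacytoid dendritic cells, 4 are genes of this group, namely Irf8, Bst2, Ly6d and Irf7. Of the other 4, 2 were called negative, with a range of -0.434 to 0.00645. None of the 5 measured neutrophil markers was called in either direction, with a range of -0.123 to 0.0351. Of 9 T cell markers 2 were called positive, Cd5 (0.614 ± 0.0077) and Cd6 (0.402 ± 0.079), and CD5 was also used to select the cells. The other T cell markers, the CD3 chains among them, were called in neither direction. The median of this list was 0.110, with a range of -0.185 to 0.614. The part of these cell types in the ratios of Ly6c1, Plac8 and Irf8 was not tested. Whether the sorted cells themselves express the listed markers was not tested either.

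**Figure D4:**
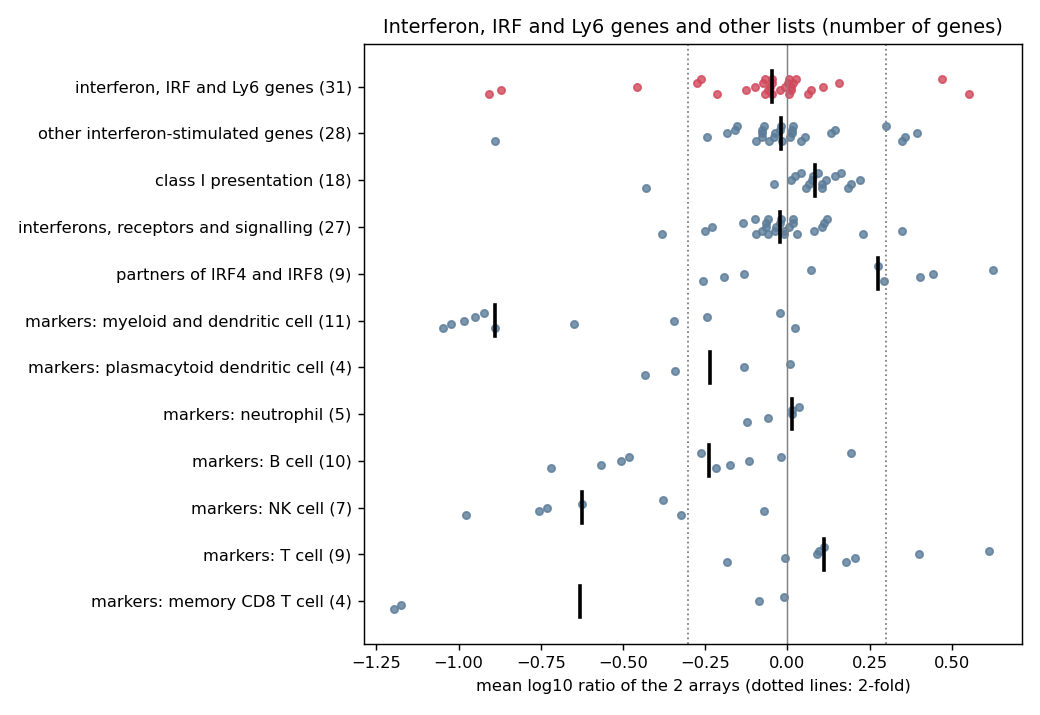
Mean log10 ratio of each gene (points) in the group and in other gene lists, with the median of each list as a black bar and the 2-fold limits as dotted lines. The 31 genes and 28 other interferon-stimulated genes centre near 0, at -0.0459 and -0.0209, and markers of myeloid cells centre at -0.888.

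Other interferon-stimulated genes outside the group also gave mixed ratios. Of 66 listed, 28 were measured, with a median of -0.0209. Of these, 3 were called positive and 1 negative, against 3.72% and 5.03% of all genes. The positive genes were Casp1, the inflammatory caspase, at 0.395 ± 0.033 (2.48-fold), the death ligand Tnfsf10 at 0.357 ± 0.039 (2.28-fold), and Socs1, a feedback inhibitor of Janus kinases, at 0.348 ± 0.00064 (2.23-fold). Casp4 was at 0.300 ± 0.00085, just under the threshold. The negative gene was Fcgr1, an antibody receptor that is also on the myeloid marker list, at -0.888 ± 0.39 (7.73-fold). Among genes without a call, the GTPase gene Tgtp1 was at -0.243 ± 0.029, and Stat2 was at -0.0394 ± 0.011. Of 27 measured interferons, receptors and signalling genes, 1 was called positive (Socs1) and 1 negative, where 8.75% of all genes were called. Their median was -0.0233. The negative gene was Ifngr1, the ligand-binding chain of the interferon gamma receptor, at -0.395 and -0.366 (mean -0.380 ± 0.020, 2.40-fold). The type I receptor chains Ifnar1 (-0.136 ± 0.047) and Ifnar2 (-0.250 ± 0.17) were not called, and Ifng itself was at -0.0926 and -0.0258. Of the relatives of the Ly6 family, 2 of 15 were measured, and neither was called, with means of -0.178 and -0.0472.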

How the data were processed

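Log10 ratios of the 2 channels, 1 per probe and array, were deposited by the authors. The labels give neither the base of the logarithm nor the numerator, and the values were read as log10. Deposited medians were -0.00284 (+ polarity) and 0.00101 (- polarity). How the arrays were scanned and normalized is not stated in the labels. The - polarity column was multiplied by -1, per the dye reversal in the labels, and the arrays, counted as 1 replicate, were averaged. Of 8014 probes, 4654 had 1 gene in the platform annotation, 73 several and 3287 none. The value of a gene is the mean over its single-gene probes (2 probes for 2 of the 31 genes). All 31 gene identifiers were found in the RefSeq table, with unchanged symbols. A gene was called at 2-fold or more, both arrays agreeing in sign, a rule of size checked on simulated data. All 31 genes are accounted for, and up to 5 other genes per list were named by the size of their mean. Spi1, B2m, Tgtp1, Stat2, Ifnar1, Ifng and Ncr1 lie outside this rule and were picked with their values known. The genes and lists were chosen with earlier results of these data known. Alternatives were single arrays, centring, scaling, another probe rule, other thresholds and other logarithm bases. Python 3.11.15, pandas 2.3.3 and numpy 2.4.6 were used.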

Additional observations from a re-analysis of the deposited data

How the results depend on the processing

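The 5 calls (2 positive, 3 negative) were the same with each array centred on its median, with the arrays scaled to the same SD and with the largest probe of a gene. No ratio of a called gene changed sign under centring or the other probe rule. Single arrays and scaling could not reverse one, because a call asks for the same sign on both arrays. With single arrays the positive count was 1 to 2 and the negative count 3 to 4, because Ifi202b was lost on the - polarity array and Bst2 was gained on the + polarity array. Single arrays called 742 (- polarity) or 452 (+ polarity) of all genes, and the mean of both called 379. The positive count was 1 where each array had to pass 2-fold. At 3-fold it was 1 and the negative count 2, without Ifi202b and Irf8, and 144 of all genes were called. At 1.5-fold the negative count was 6, adding Bst2, Iigp1 and Ly6d, and 774 of all genes were called. Read as log2, the counts were 0 and 0, with a rule of size and no test, and 17 of all genes were called. Read as natural logs they were 0 positive and 2 negative (Ly6c1 and Plac8), with 62 of all genes called. The median of the 31 genes was -0.0447 to -0.0446 on single arrays, -0.0440 after centring, -0.0468 after scaling, and -0.0138 or -0.0199 on the log10 scale if the values were log2 or natural logs. No paired analysis was possible because the 2 arrays form a single pair. Signal over background was not analysed here, so a ratio near 0 of a gene with low signal cannot be told from equal expression.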
